A study of Mus musculus with 2 samples.

Results

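Colony-stimulating factors and interleukin-6 (IL-6) family genes were followed in cultured mouse cavernous endothelial cells (MCECs) under high glucose. The set held 10 genes of the 23183 gene symbols in the files. They were Csf1, Csf2 and Csf3, the IL-6 family ligands Il6, Lif and Il11, the receptor subunits Il6st and Osmr, and Stat3 and Socs3. Their rows were selected by gene symbol, and the family itself was chosen from differences between these same libraries, so the differences below describe the libraries and support nothing further. Both libraries came from primary MCECs, grown from mouse corpus cavernosum and used at low passage. HG+HBS was the culture in high glucose (HG, 30 mM) given the vehicle, HEPES-buffered saline (HBS). HG+PC-NVs was the culture in the same glucose given 1 µg/mL PC-NVs, vesicle mimetics obtained by pressing pericytes of the mouse corpus cavernosum through filters. The sample labels give 5 days of glucose, while the study's methods give 72 hours of glucose and 24 hours of PC-NVs. The labels do not say how many animals or dishes stood behind a library. With 1 library per condition, no difference could be set against the spread between cultures, and no p-value is given.

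Colony-stimulating factors are secreted proteins that drive the growth and activation of blood cell lineages, Csf1 for monocytes and macrophages, Csf2 for granulocytes and macrophages, and Csf3 for neutrophils. Ligands of the IL-6 family signal through receptor complexes that share the subunit gp130, encoded by Il6st. Janus kinases bound to these receptors activate the transcription factor Stat3, and Stat3 induces Socs3, which blocks the same receptors. Endothelial and stromal cells are known sources of several of these ligands under inflammatory stimuli.

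Levels are given in FPKM, fragments per kilobase of transcript scaled to the depth of the library, with the transcript rows of a gene summed. Ratios on the log2 scale were taken after adding 1 FPKM, and intervals for levels and FPKM ratios are 95% intervals for counting error only. The HBS library rested on roughly 13300000 fragments and the PC-NVs library on roughly 11600000, as estimated from the smallest steps in the values. The defining endothelial markers were low in both libraries. Of 14 such genes, 4 reached 1 FPKM in both libraries, namely Cdh5, Egfl7, Eng and Esam. Pecam1 was at 1.05 FPKM under HBS and 0.938 FPKM under PC-NVs, Vwf at 0.158 and 0.128 FPKM, and Eng, the highest of the list, at 29.0 and 21.4 FPKM. Fibroblast markers were high, with Thy1 at 549 and 412 FPKM and Pdgfra at 149 and 129 FPKM. The marker transcripts thus went against the label of these cells as endothelial.

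Of the 10 genes, 4 lay more than 2-fold higher after PC-NVs, and all of them were secreted ligands (Csf3, Il6, Lif and Il11). They were also more than 4-fold higher, and 0 of the 10 genes were more than 2-fold lower. The receptor subunits, Stat3, Socs3 and Csf1 stayed within 2-fold, and Csf2 was listed at 0 in both libraries. A gene was tested where its log2 value averaged 1 or more over the libraries. Across the 11785 genes tested, 2.38% were more than 2-fold higher, 0.798% more than 2-fold lower and 0.636% more than 4-fold higher. Of the 10 genes, 9 were tested, and Csf3 passed this filter only through its level in HG+PC-NVs. The family was chosen on this contrast, so nothing is read from its counts beside these shares. The member nearest above the 2-fold limit was Il11, with a log2 ratio of 2.37, and the nearest below it was Socs3, with 0.77. Since these are bulk libraries, more cells of a kind, more RNA made per cell and RNA carried in by the vesicles cannot be told apart. The paper assumed such a transfer for the genes it called, and it was not tested here.

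**Figure D1:**
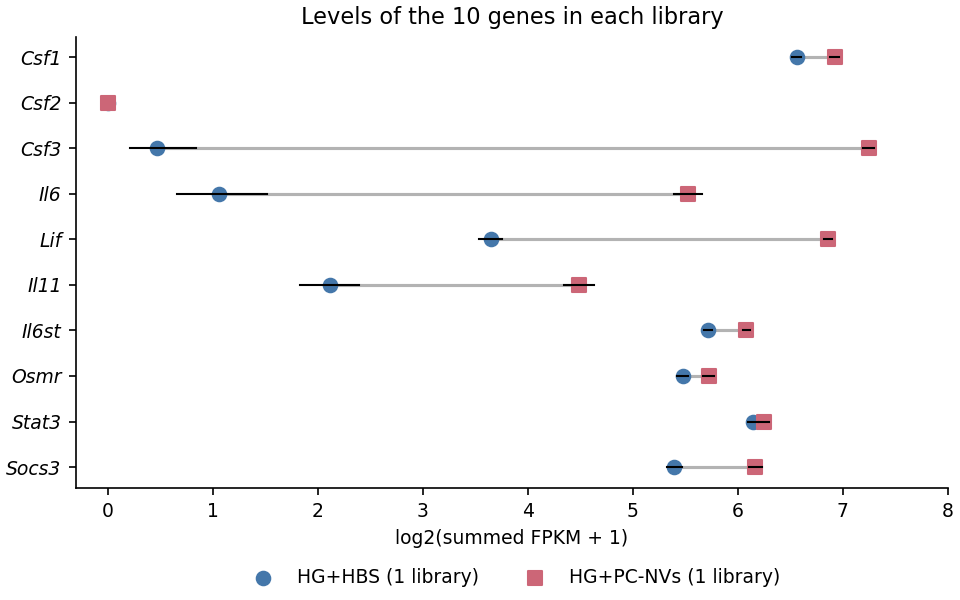
Level of each of the 10 genes as log2(summed FPKM + 1) in the HG+HBS library (circles) and the HG+PC-NVs library (squares), with black lines for the 95% counting interval. Csf3, Il6, Lif and Il11 lie far apart between the libraries, Csf2 is at 0 in both, and the other 5 genes differ by less than 1 on this scale.

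Csf3, which encodes granulocyte colony-stimulating factor (chr11:98701263-98703629 of GRCm38), was at 0.390 FPKM under HBS and 151 FPKM under PC-NVs. It was almost silent in the vehicle culture and the most abundant of the 10 genes in the treated culture. The ratio of the FPKM values was 387 (196 to 838), and the wide interval came from about 7.34 fragments in HG+HBS against about 2471 in HG+PC-NVs. On the log2 scale the ratio was 6.77, position 3 from the top among 11785 genes. By level, Csf3 was at position 11755 of these genes under HBS and at position 521 under PC-NVs. It is among them only through its level in HG+PC-NVs, and genes low in both libraries were left out. Its position under HBS therefore follows largely from the filter, and nothing is read from the shift.

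Csf1, which encodes macrophage colony-stimulating factor (chr3:107741048-107760469), was at 93.4 FPKM under HBS and 121 FPKM under PC-NVs. It was the most abundant of the 10 genes in the vehicle culture, and its log2 ratio of 0.36 lay between the 5th and 95th percentiles of all genes tested (-0.50 and 0.61). Its 3 transcript rows differed in the size of the gap. The main row went from 78.6 to 91.2 FPKM, a log2 ratio of 0.21, while the minor rows went from 7.38 to 14.5 FPKM and from 7.41 to 14.8 FPKM, log2 ratios of 0.89 and 0.91. The files name rows by symbol, so the rows were not assigned to isoforms.

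Csf2, which encodes granulocyte-macrophage colony-stimulating factor (chr11:54247271-54249667), was listed at 0 in both libraries. A count of 0 allows up to 3 fragments, which for its transcript of 800 nt is 0.281 FPKM under HBS and 0.323 FPKM under PC-NVs. Csf3 made up 0.415% of the summed FPKM of the 3 colony-stimulating factors under HBS and 55.6% under PC-NVs. Their sum went from 93.8 to 271 FPKM, so the pair of abundant factors in the treated culture was Csf3 and Csf1.

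Il6 (chr5:30013114-30019981) encodes interleukin-6, the founding ligand of the family and an inducer of the acute-phase response. Its level was 1.09 FPKM under HBS and 45.1 FPKM under PC-NVs. The FPKM ratio was 41.3 (24 to 71.4), from about 13.0 and 469 fragments, and the log2 ratio of 4.46 stood at position 11 among all genes tested.

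Lif (chr11:4257557-4272514) encodes leukaemia inhibitory factor, which signals through Lifr and gp130. It was at 11.5 FPKM under HBS and 115 FPKM under PC-NVs, and was the most abundant IL-6 family ligand in both. The FPKM ratio was 9.96 (9.15 to 10.8), and the log2 ratio of 3.21 stood at position 16. Both of its rows were higher in HG+PC-NVs, the smaller at 3.41 and 13.9 FPKM and the larger at 8.13 and 101 FPKM. The larger row held 70.4% of the gene's FPKM under HBS and 87.9% under PC-NVs.

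Il11 (chr7:4772373-4782859) encodes interleukin-11, a stromal ligand that signals through Il11ra1 and gp130. It was at 3.33 FPKM under HBS and 21.4 FPKM under PC-NVs, nearly all of it in a single row. The FPKM ratio was 6.44 (4.96 to 8.39), and the log2 ratio of 2.37 stood at position 53. Summed over Il6, Lif and Il11, the level went from 16.0 to 182 FPKM, an 11.4-fold gap.

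**Figure D2:**
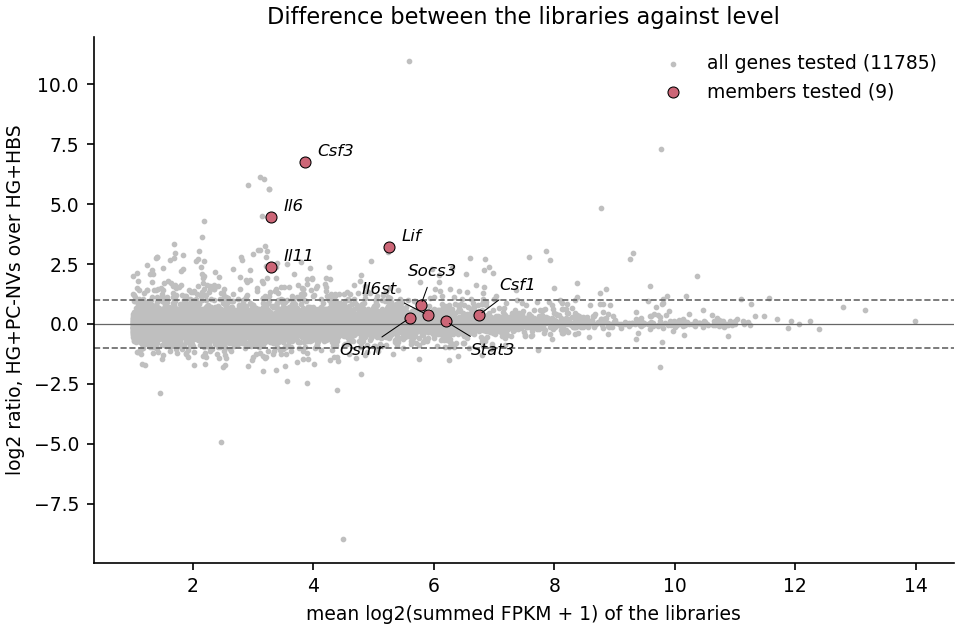
The log2 ratio of HG+PC-NVs over HG+HBS (vertical axis) against the mean log2(summed FPKM + 1) of the libraries (horizontal axis) for 11785 genes in grey and the 9 members among them in red, with dashed lines at 2-fold. Csf3, Il6, Lif and Il11 lie well above the upper line, while Socs3, Il6st, Csf1, Osmr and Stat3 lie between the dashed lines.

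The study asked for a 4-fold difference and a log2 value above 6. With the level limit read as holding for each library, 0 of the 10 genes were called, beside 7 of 1191 genes, or 0.588%. Of the 10 genes, Csf1 and Stat3 were above 6 throughout. The 4-fold higher genes Csf3 and Lif passed 6 after PC-NVs alone, from log2 values of 0.47 and 3.65 under HBS, and Il6 and Il11 stayed below it.

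Many short-lived cytokine messengers carry AU-rich elements in their 3′ untranslated region (UTR), which proteins such as those of the Zfp36 family bind to promote decay. The core heptamer TATTTAT was counted on the sense strand in the longest 3′ UTR of each gene, from GENCODE M21 transcripts linked to RefSeq. All 6 ligand genes held at least 1 match, whereas Il6st, Osmr and Stat3 held 0 in UTRs of 5641, 1794 and 3701 nt. Csf2 held 9 matches in 317 nt, Il11 held 6 in 1194 nt, Lif 5 in 3180 nt, Csf3 2 in 669 nt, and Il6 and Csf1 1 each in 427 and 2111 nt. Socs3 held 2 in 1474 nt. Among 11031 genes tested with such a UTR, 30.2% held at least 1 match and 9.72% held more than 1 match per kilobase, and longer UTRs have more room for matches. The 30 bases with the most matches are shown for the 4 ligands more than 2-fold higher and for Csf2, with the heptamers in capitals. They lie at chr11:98702988-98703017 on the forward strand (Csf3), chr5:30019727-30019756 forward (Il6), chr11:4270477-4270506 forward (Lif), chr7:4773498-4773527 on the reverse strand (Il11) and chr11:54247325-54247354 reverse (Csf2) of GRCm38, and are written 5′ to 3′ on the gene's strand.
Csf3: gttTATTTATctctatttaaTATTTATgca
Il6: atttatgattgaTATTTATtatttttatga
Lif: gtcTATTTATtactatgtccTATTTATatt
Il11: ccagatctTATTTATTTATTTATtttggta
Csf2: taaaTATTTATTTATTTATTTATTTATttt

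The Il11 and Csf2 windows hold tandem, overlapping heptamers, with 3 and 5 in the 30 bases. The Csf3 and Lif windows hold 2 separate heptamers each, and the Il6 window holds 1. Csf1, whose level was within 2-fold, also held a heptamer, and Csf2, listed at 0 in both libraries, held the most. Whether these elements bear on the levels was not tested.

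**Figure D3:**
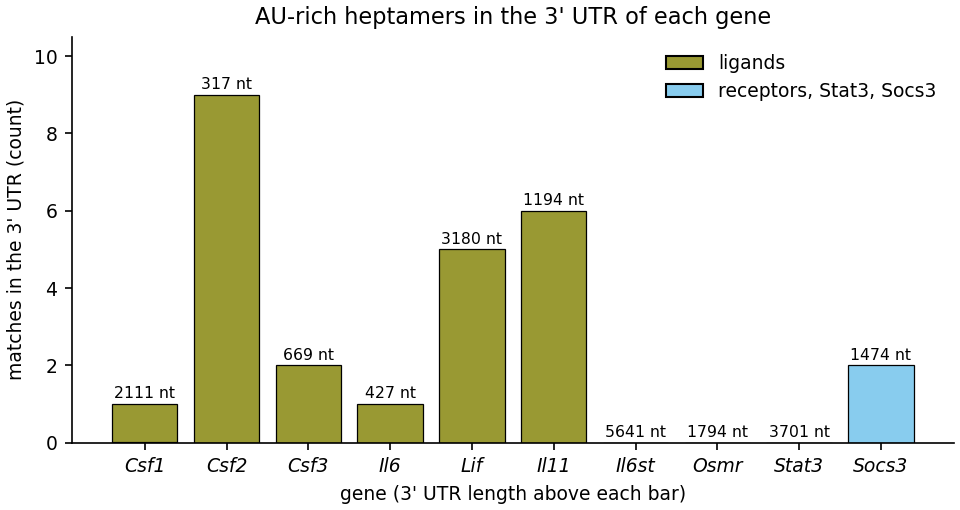
Number of AU-rich heptamers (vertical axis) in the 3′ UTR of each of the 10 genes, with the UTR length in nt above each bar. The ligand genes have between 1 and 9 matches, Socs3 has 2, and Il6st, Osmr and Stat3 have 0.

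Promoters were examined in the RefSeq table of GRCm38, in which 9 of the 10 genes were found, all but Csf3. In the 250 bases before each annotated start, 5 motifs were searched on both strands, namely the NF-kB motif (kB), a C/EBP motif (TTGCNNAA), a STAT motif (TTCNNNGAA), an AP-1 motif (TGANTCA) and the cyclic AMP response element (TGACGTCA). The promoter of Il6 held a kB match 44 bases before the start, a C/EBP match at 128 and an AP-1 match at 249. Lif held an AP-1 match at 228, and Il11 held 1 at 98 in the second of its 2 annotated starts and no match in the other. Csf1 held a kB match at 154, Csf2 a C/EBP match at 145, and Socs3 a STAT match at 154, although the bases after the start used for Csf2 and for Socs3 were not found at the beginning of a GENCODE transcript. Il6st, Osmr and Stat3 held no match. Of 32851 promoters, 3.90% held the kB motif, 9.56% the C/EBP motif, 7.02% the STAT motif, 6.75% the AP-1 motif and 1.55% the cyclic AMP response element. No 2 motifs overlapped in these promoters. Whether these motifs bear on the levels was not tested. The promoters of the 3 IL-6 family ligands are shown, with matches in capitals and the last base next to the start. For Il11 it is that of the second start, and all 3 were picked with the ratios and matches known. They are chr5:30012864-30013113 forward (Il6), chr11:4257318-4257567 forward (Lif) and chr7:4778142-4778391 reverse (Il11).
Il6: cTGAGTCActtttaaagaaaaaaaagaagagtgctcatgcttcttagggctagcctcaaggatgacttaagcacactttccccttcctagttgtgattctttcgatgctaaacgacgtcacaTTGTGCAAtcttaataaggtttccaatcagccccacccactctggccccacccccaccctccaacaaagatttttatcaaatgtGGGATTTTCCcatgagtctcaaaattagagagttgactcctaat
Lif: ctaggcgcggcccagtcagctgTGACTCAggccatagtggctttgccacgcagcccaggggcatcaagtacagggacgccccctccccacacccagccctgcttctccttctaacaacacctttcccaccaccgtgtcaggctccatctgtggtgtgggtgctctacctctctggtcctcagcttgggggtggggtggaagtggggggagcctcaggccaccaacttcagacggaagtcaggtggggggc
Il11: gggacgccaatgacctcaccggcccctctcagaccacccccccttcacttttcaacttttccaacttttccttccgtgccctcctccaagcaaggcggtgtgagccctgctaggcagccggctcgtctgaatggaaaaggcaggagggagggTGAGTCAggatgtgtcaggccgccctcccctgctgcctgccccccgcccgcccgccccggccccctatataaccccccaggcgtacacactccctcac

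Il6st, the shared signalling subunit gp130 (chr13:112464070-112510086), was at 51.6 FPKM under HBS and 66.8 FPKM under PC-NVs. Osmr, the subunit that pairs with gp130 for oncostatin M (chr15:6813577-6874969), was at 43.5 and 51.9 FPKM. Both receptors were thus well above most genes in the vehicle culture and lay within 2-fold, with log2 ratios of 0.36 and 0.25. Il6st and Osmr together went from 95.2 to 119 FPKM, a ratio of 1.25, beside the 11.4-fold gap of the 3 ligands.

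Stat3 (chr11:100885098-100939540) was at 69.8 FPKM under HBS and 75.2 FPKM under PC-NVs, with a log2 ratio of 0.11. Its 3 rows were at 8.51, 47.8 and 13.4 FPKM in HG+HBS and at 11.7, 48.8 and 14.7 FPKM in HG+PC-NVs. The direction of this small gap turned under upper-quartile scaling (log2 ratio -0.08), which moved the median of all genes by -0.17. Stat3 shares 72 exon bases with Stat5a on the other strand, and Stat5a was at 6.77 and 8.44 FPKM. Messenger levels say nothing of the phosphorylation that activates Stat3.

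Socs3, the Stat3-induced inhibitor of gp130 receptors (chr11:117966079-117970047), was at 41.1 FPKM under HBS and 70.9 FPKM under PC-NVs. Its log2 ratio of 0.77 lay above the 95th percentile of all genes tested and below the 99th (0.61 and 1.55). The FPKM ratio was 1.72 (1.61 to 1.84), within the 2-fold limit.

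The order of the 10 genes by level changed between the libraries. In HG+HBS it was Csf1, Stat3, Il6st, Osmr, Socs3, Lif, Il11, Il6, Csf3 and Csf2, and the counting intervals of neighbours overlapped for Osmr and Socs3 and for Il6 and Csf3. In HG+PC-NVs it was Csf3, Csf1, Lif, Stat3, Socs3, Il6st, Osmr, Il6, Il11 and Csf2, with overlapping intervals for Csf1 and Lif, for Stat3 and Socs3, and for Socs3 and Il6st.

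Most of the rest of the pathway lay within 2-fold. Over 88 further genes of 9 lists, 73 were tested, of which 7 (9.59%) were more than 2-fold higher and 0 more than 2-fold lower, beside 2.38% and 0.798% of all genes tested. Their median log2 ratio was 0.10, against -0.01 for all genes tested. The 7 genes were Cebpb, Ebi3, Fgl2, Fos, Rhbdf2, Timp1 and Zc3h12a. Of these, Ebi3 passed the filter on low values only through HG+PC-NVs, so nothing is read from this share.

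Among the other ligands, Ebi3, a subunit of interleukin-27 and interleukin-35, went from 0.563 to 3.21 FPKM, and Clcf1, a ligand of the ciliary neurotrophic factor receptor, from 12.9 to 20.6 FPKM. Il34, the other ligand of the Csf1 receptor, was at 2.29 and 3.41 FPKM, and Il3 was listed at 0 in both libraries. Apart from Ebi3, no ligand outside the 10 genes passed 2-fold.

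Of the receptors of the IL-6 family, 5 of 9 were tested, and 0 passed 2-fold in either direction. Il11ra1, the interleukin-11 receptor, was at 45.1 and 39.1 FPKM, Il6ra at 5.73 and 5.67 FPKM and Lifr at 2.13 and 1.69 FPKM. The receptor for the ligand with the highest level, Lif, was thus among the lower ones. Of the 7 receptors for colony-stimulating factors and related interleukins, 4 were tested and 0 passed 2-fold. Csf3r, the receptor of the most abundant ligand in the treated culture, was at 0.141 and 0.235 FPKM, while Csf1r was at 8.39 and 6.20 FPKM.

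All 10 tested genes of the Janus kinase and STAT list lay within 2-fold, with a median log2 ratio of 0.01. Jak1, the most abundant, was at 86.1 and 75.6 FPKM. The 17 Socs and other inhibitor genes also lay within 2-fold, with a median log2 ratio of -0.01, and Socs3 had the largest log2 ratio among them. Socs1 was at 9.78 and 11.7 FPKM, and Socs2, which restrains growth hormone signalling, was at 25.1 and 17.8 FPKM.

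Known Stat3 target genes outside the 10 genes had a median log2 ratio of 0.51 over 19 genes. Of the 19, 4 were more than 2-fold higher and 0 lower, beside 2.38% and 0.798% of all genes tested. Cebpb, Fos and Timp1 lay just past the limit, with log2 ratios of 1.03, 1.03 and 1.17. Other processing settings were not tried on this list. Timp1, an inhibitor of matrix metalloproteases, went from 619 to 1398 FPKM. Cebpb, a transcription factor of the acute-phase response, went from 88.8 to 182 FPKM, and Fos, an AP-1 subunit, from 3.74 to 8.66 FPKM. Fgl2, a fibrinogen-like protein, went from 3.98 to 15.3 FPKM. Ccnd1, which encodes cyclin D1, had the lowest log2 ratio of the list, -0.63, at 143 and 91.6 FPKM. Many of these genes also answer to other pathways.

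Among 13 regulators of cytokine messenger decay, Zc3h12a was the only gene past 2-fold. It encodes the endonuclease Regnase-1, which cuts Il6 messengers, and went from 1.79 to 16.6 FPKM, a log2 ratio of 2.66. Zfp36, which binds AU-rich elements, was at 22.3 and 26.9 FPKM, and Zfp36l1 at 55.6 and 85.7 FPKM. Of 4 genes for receptor shedding, Rhbdf2, a partner of the sheddase Adam17, went from 6.50 to 14.1 FPKM, and Adam17 itself was at 22.9 and 31.3 FPKM.

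**Figure D4:**
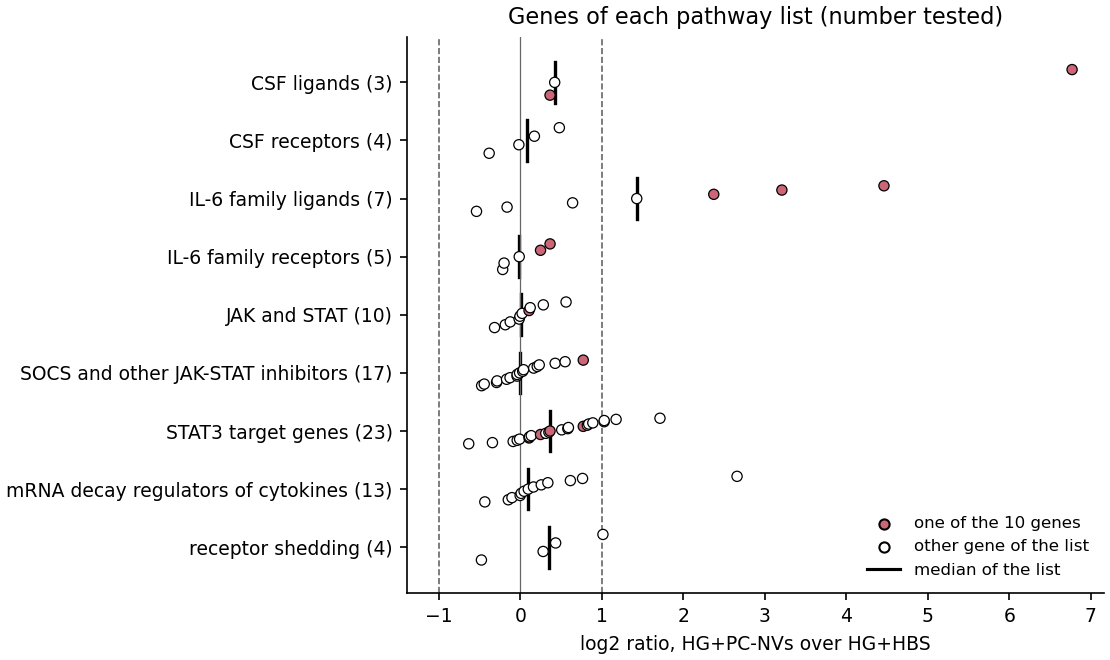
The log2 ratio of HG+PC-NVs over HG+HBS (horizontal axis) for each tested gene of 9 pathway lists, with the 10 genes in red, other genes in white, list medians as black bars and dashed lines at 2-fold. The ligand lists reach up to 6.77, whereas receptors, kinases, STATs and inhibitors lie between -0.48 and 0.77.

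Markers of other cell types differed between the libraries as well, in both directions. For the counts that follow, 2.38% of all genes tested were more than 2-fold higher and 0.798% more than 2-fold lower. Of 12 myeloid markers, none of which was at 0, 4 were more than 2-fold higher with PC-NVs and 0 were that much lower, and their summed level was 393 FPKM under HBS and 643 FPKM under PC-NVs. Cd14 went from 36.6 to 252 FPKM, Adgre1 from 7.44 to 42.5 FPKM, Aif1 from 2.93 to 12.9 FPKM and Fcer1g from 18.8 to 41.1 FPKM, while Ptprc was at 1.44 and 1.67 FPKM and Tyrobp at 29.4 and 29.5 FPKM. Most of the gap in the sum was that of Cd14, and 8 of the 12 markers were higher at all. The others were Lyz2 at 212 and 193 FPKM, Cd68 at 36.2 and 26.3 FPKM, Ctss at 31.2 and 25.3 FPKM and Csf1r at the values given above. Fibroblast markers summed to 2116 and 2422 FPKM, where Dcn, at 623 and 1283 FPKM, was the only one of 9 past 2-fold. Only 2 of the 9 were higher at all, and the median log2 ratio of the 9 was -0.31. Pericyte markers summed to 107 and 111 FPKM, with 3 of 9 tested genes more than 2-fold higher (Ndufa4l2, Rgs5 and Kcnj8). The median log2 ratio of the 9 was -0.18, and Anpep was at 26.7 and 13.7 FPKM, Cspg4 at 20.4 and 12.2 FPKM and Pdgfrb at 38.4 and 33.7 FPKM. Smooth muscle markers summed to 71.0 and 36.9 FPKM, with 2 of 3 tested genes more than 2-fold lower (Acta2 and Tagln). Endothelial markers summed to 65.6 and 50.8 FPKM. Lymphoid markers were near 0, with Cd3e, Cd8a and Nkg7 listed at 0 in both libraries, and among epithelial markers Krt5, Krt14 and Cdh1 were at 0 while Krt18 went from 9.61 to 2.05 FPKM. The part of these cell types in the ligand values was not tested.

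**Figure D5:**
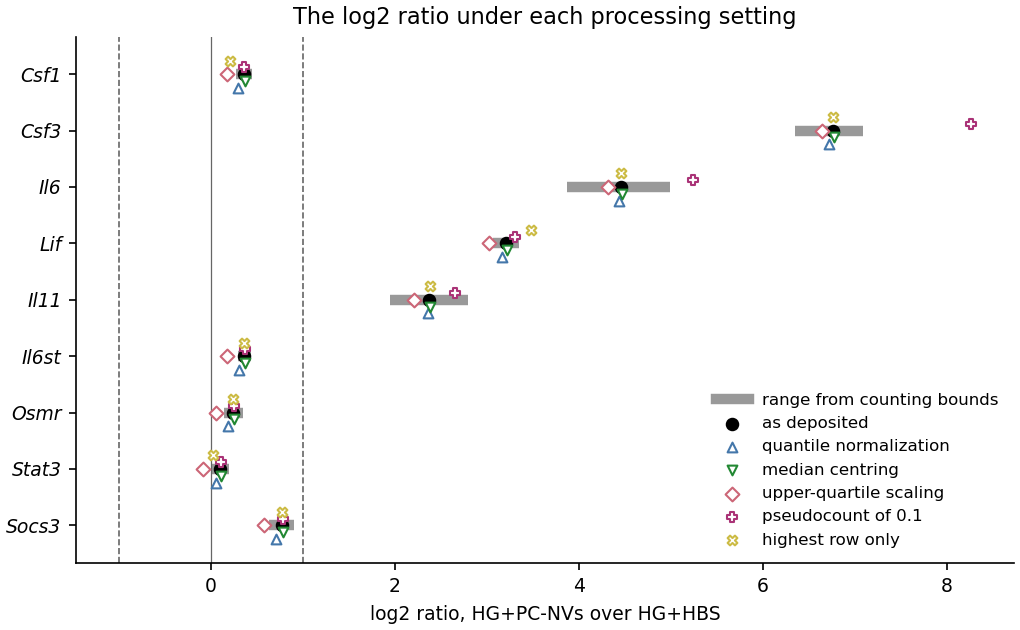
The log2 ratio of HG+PC-NVs over HG+HBS (horizontal axis) for 9 genes as deposited (black) and under 5 other processing settings (open symbols), with a grey bar spanning the counting bounds of both libraries and dashed lines at 2-fold. Csf3, Il6, Lif and Il11 lie above 2 on the log2 scale in each setting, and the other 5 genes lie below 1.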

How the data were processed

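RNA of MCECs was sequenced as paired-end libraries made from poly(A) RNA with a stranded kit. Per the methods and labels, adapters and low-quality reads were removed, TopHat mapped the rest to mm10, and read counts and FPKM came from BEDTools and Cufflinks. The authors then applied a normalization named as edgeR quantile normalization. The sorted values of the libraries still differed by more than 0.05 in 2318 rows. The authors deposited log2(normalized FPKM + 1) for 33299 transcript rows per library. That the values are on a log2 scale was read from their range, up to 13.99. Software versions and the annotation are not given in the sources used here.

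Here each value was converted to FPKM, the rows of a symbol were summed, and log2 ratios were taken after adding 1 FPKM. A gene was tested where the log2 value averaged 1 or more, and was called past 2-fold. The deposited values were used without further normalization. With 1 library in each condition no p-value could be given. The 10 genes, the lists and the thresholds were chosen with earlier results of these data known. Named genes were the 10 genes, and from each list those past 2-fold and the most abundant, with a few further receptors, ligands, regulators and list extremes and low markers named after their values were seen.

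The worth of 1 fragment was the most frequent low value of FPKM times length over 2189 genes with 1 row and 1 transcript, longer than 1500 nt. A second peak lay at 1.99 and 2.01 times it. Fragments per gene used the mean length of the gene's RefSeq-linked transcripts and are approximate. Intervals were exact Poisson for levels and Wilson for ratios, at 95%, and 3 fragments were the floor. GENCODE M21 (GRCm38) held 95.5% of the symbols. Calculations were checked on simulated data. The scripts ran under Python 3.11.15 (pandas 2.3.3, numpy 2.4.6, matplotlib 3.10.9, scipy 1.17.1).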

Additional observations from a re-analysis of the deposited data

How the results depend on the processing

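The count of genes among the 10 more than 2-fold higher was 4, and more than 2-fold lower 0, under each normalization, pseudocount, row choice and filter tried. With a fold threshold of 4 it was 4, and with 1.5 it was 5, Socs3 being added. Of 45 alternative log2 ratios of the 9 genes above 0, 35 stayed within the counting bounds and 10 moved past them, 6 of these with upper-quartile scaling. A pseudocount of 0.1 moved Csf3 to 8.27 and Il6 to 5.24, and the highest row alone moved Lif to 3.48 and Csf1 to 0.21.

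Over all genes, 281 were more than 2-fold higher and 94 lower. Upper-quartile scaling gave 210 and 164, so the share of higher calls went from 74.9% to 56.1%. A pseudocount of 0.1 gave 190 lower, a mean log2 of at least 3 gave 160 higher and 49 lower, a fold threshold of 4 gave 75 and 7, and 1.5 gave 628 and 421. The count past 4-fold was 75, against 114 with a pseudocount of 0.1 and 43 with a mean log2 of at least 3. The smaller counts at a mean log2 of at least 3 come with fewer genes tested (7584). The counts at fold thresholds of 4 and 1.5 follow from the threshold itself. Upper-quartile scaling moved the median log2 ratio of all genes by -0.17. Any other cause of the changes was not tested. No paired analysis was possible because each condition has 1 library, so none could be left out either. Depth limits Csf3, Il6 and Csf2, which rest on few or no fragments in HG+HBS.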
